A study of Mus musculus with 12 samples.

Results

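The matrix proteases described here are the matrix metalloproteinases (MMPs), the ADAMTS proteases and their tissue inhibitors (TIMPs), taken as every gene in the table named Mmp, Adamts or Timp with a number. They are 41 of 29428 genes, namely 20 Mmp, 17 Adamts and 4 Timp genes. Expression was measured by RNA-seq in STHdhQ7 and STHdhQ111 cells, immortalised striatal lines whose huntingtin gene carries 7 or 111 glutamine repeats. The 12 libraries fell into 4 groups of 3, nontreated cells of either line (Q7-C and Q111-C) and cells of either line (Q7-T and Q111-T) that had received murine IFNγ at 100 ng/ml together with LPS at 5 μg/ml and were harvested 24 h later. Each genotype is represented by 1 line, so the repeat length and any other difference between the lines cannot be told apart, and, while the study calls the libraries of a group biological replicates, no label says that they came from separate cultures, so the p-values measure the spread between these libraries only. The lines are labelled striatal neuronal, and their neuronal markers were mixed, since Snap25, Syp and Dcx did not exceed 0.0168, 0.208 and 0.018 TPM (a level scaled for transcript length and library total), whereas Stmn2 reached 82.0 TPM, Tubb3 83.6 TPM and Map2 10.6 TPM in their highest libraries. Among the mesenchymal markers Vim averaged 2493 ± 158 TPM (SD, n = 3) in Q7-C, while Thy1 did not exceed 0.157 TPM. Of the markers of macrophages or microglia, a major source of MMPs in inflamed tissue, Ptprc did not exceed 0.00642 TPM, Adgre1 0.0463 TPM and Itgam 0.0762 TPM. The summed level of the 6 of 8 genes of that list found in the table was 5.93 to 8.45 TPM in nontreated and 8.81 to 15.3 TPM in treated STHdhQ7 cells, and 14.5 to 16.9 TPM in nontreated and 40.8 to 58.0 TPM in treated STHdhQ111 cells, nearly all of it from Cd68, a lysosomal protein. The summed level of 7 mesenchymal markers was 4240 to 4840 TPM and 3290 to 3710 TPM in nontreated and treated STHdhQ7 cells, and 3670 to 3830 TPM and 1500 to 1620 TPM in STHdhQ111 cells, and that of 6 neuronal markers was 94.5 to 104 TPM and 132 to 168 TPM, and 9.87 to 13.8 TPM and 31.1 to 35.0 TPM. Within the mesenchymal list the mean in nontreated STHdhQ7 and STHdhQ111 cells was 1670 and 43.7 TPM for Acta2, whereas for Col1a1 it was 265 and 791 TPM, for Col1a2 14.6 and 250.2 TPM and for Col3a1 27.7 and 136 TPM, so the sum covers genes that were lower and genes that were higher in STHdhQ111 cells. The summed level of 6 astrocyte markers was 1.05 to 1.98 TPM and 1.33 to 1.85 TPM in nontreated and treated STHdhQ7 cells. In STHdhQ111 cells it was 9.01 to 11.1 TPM and 4.16 to 5.24 TPM. These lists moved with line and treatment, the astrocyte list with treatment in STHdhQ111 cells only, and their part in the results was not tested.

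MMPs are zinc endopeptidases that cut collagens, proteoglycans and glycoproteins of the extracellular matrix, together with many cytokines and cell surface proteins. They are made as inactive proenzymes, and most are secreted, whereas the membrane-type members stay at the cell surface. The ADAMTS proteases, which carry thrombospondin repeats, include enzymes that cleave the large proteoglycans of brain and cartilage and enzymes that mature procollagens. The 4 TIMPs bind the active site of MMPs, and Timp3 also inhibits ADAMTS proteases. Stromelysin 1 and the collagenases are classical targets of inflammatory stimuli, and loss of the balance between proteases and TIMPs is studied in brain inflammation and barrier breakdown.

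Several MMP genes lie side by side in the genome. On chromosome 9 (GRCm38), 7 MMP members were neighbours between 7272514 and 7699585, a stretch of 427 kb, in the order Mmp13, Mmp12, Mmp1b, Mmp3, Mmp10, Mmp27 and Mmp7, and 3 of these 7 genes were expressed highly enough to be tested. These are Mmp13 (chr9:7272514-7283331), Mmp3 (chr9:7445822-7455975) and Mmp10 (chr9:7502352-7510240), and their promoters are shown because the largest fitted changes with IFNγ/LPS among the tested members, called or not, were those of these 3 genes. RefSeq promoter windows on GRCm38.p6 were matched to 27 of the 41 members, in 30 entries. The AP-1 letters TGANTCA, which read the same on both strands, occurred in the windows of 6 members, all of them in the chromosome 9 stretch, and in 7.81% of all 32851 windows. The capitals mark these letters, which begin at base -46 from the RefSeq start in Mmp3, at base -63 in Mmp10 and at base -35 in Mmp13. The windows are chr9:7445572-7445871, chr9:7502092-7502391 and chr9:7272264-7272563, all on the plus strand.
Mmp3: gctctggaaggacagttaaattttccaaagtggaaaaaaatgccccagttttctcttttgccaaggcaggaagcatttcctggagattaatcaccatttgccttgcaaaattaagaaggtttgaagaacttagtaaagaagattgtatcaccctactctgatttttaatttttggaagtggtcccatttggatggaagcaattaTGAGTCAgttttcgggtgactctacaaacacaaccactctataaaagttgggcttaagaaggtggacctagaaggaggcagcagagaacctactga
Mmp10: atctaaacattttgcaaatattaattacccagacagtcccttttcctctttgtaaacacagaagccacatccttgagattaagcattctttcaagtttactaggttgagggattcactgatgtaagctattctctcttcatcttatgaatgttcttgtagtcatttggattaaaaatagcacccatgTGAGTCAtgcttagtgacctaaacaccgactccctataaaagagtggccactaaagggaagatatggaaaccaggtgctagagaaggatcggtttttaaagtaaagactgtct
Mmp13: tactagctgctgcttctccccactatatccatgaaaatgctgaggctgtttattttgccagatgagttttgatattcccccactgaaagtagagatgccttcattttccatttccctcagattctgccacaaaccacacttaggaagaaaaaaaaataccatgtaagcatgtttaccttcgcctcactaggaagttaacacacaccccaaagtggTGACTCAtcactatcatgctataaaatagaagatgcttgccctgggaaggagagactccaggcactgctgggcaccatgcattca
The others with these letters were Mmp12, Mmp1b and Mmp7, whereas the window of Mmp27 did not contain them. The NF-kB consensus was found, on either strand, in Adamts9, Adamts20, Mmp12 and Mmp25 and in 8.46% of all windows. The AP-1 letters are too short to contain the NF-kB pattern. A match describes letters in a window and is not evidence of binding.

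Of the 41 members, 24 reached the minimum of 0.5 TPM in at least 3 libraries and were tested with edgeR among 16127 genes, namely 12 Mmp, 9 Adamts and 3 Timp genes. A member was called when its Benjamini-Hochberg adjusted p was under 0.05 and its level differed at least 2-fold. Mmp9, Mmp10, Mmp13, Mmp25, Adamts2 and Adamts14 reached the minimum only, or in all but 1 library, in 1 line or in 1 treated group, so the counts of called members describe the selection as well as the groups. Among the tested members, 16 were called in at least 1 of the 5 comparisons, and Adamts10, Mmp9, Mmp10, Mmp11, Mmp14, Mmp19, Mmp28 and Timp1 in none. The share of all genes called in at least 1 comparison was not computed, so the count of 16 cannot be set against it. The remaining 17 members stayed below the minimum. Among them Mmp23 reached 0.443 TPM, Timp4 0.312, Adamts9 0.213, Mmp24 0.204, Mmp21 0.155, Mmp1b 0.152, Mmp17 0.132, Mmp12 0.119 and Adamts3 0.114, and the highest values of Mmp7, Mmp27, Adamts8, Adamts15, Adamts16, Adamts17, Adamts19 and Adamts20 lay between 0.0115 and 0.0919 TPM. Mmp12, the macrophage metalloelastase, was listed at 0 TPM in every library but those of Q111-T, where it was at 0.0913, 0.0252 and 0.119 TPM. Adamts7, Mmp11, Mmp19, Timp1 and Timp3 overlap a protein-coding gene on the opposite strand (Tbc1d2b, Chchd10, Tmem198b, Syn1 and Syn3), and although the libraries were stranded, whether the counting used strand is not given in the sources used here. Mmp1a, Mmp8, Mmp20, Adamts13 and Adamts18 were not analysed here.

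The libraries held between 57505990 and 96417834 estimated counts each, where about 4 counts stand for 1 read pair. In 3 libraries, Q7-C replicate 1, Q7-T replicate 2 and Q111-T replicate 2, genes with long transcripts lay below the other libraries of their group (median log2 deviations of -0.75, -0.99 and -0.46 in the longest of 3 length classes, against 0.05, -0.02 and 0.04 in the shortest). Of the 24 tested members, 20, 22 and 20 were below both other replicates in these libraries, as were 65.9%, 69.3% and 60.7% of all genes. In Q111-C replicate 1 the same held for 18 members and 47.5% of all genes. The longest transcripts of the 17 Adamts genes span 3631 to 10791 bases, where the longest class begins above 3773. The member counts below are therefore also given without these 3 libraries. In Q111-T vs. Q7-T and in the other line comparison, TPM shifted by 0.34 and 0.27 on the log2 scale over the median gene, whereas the edgeR fold changes were centred at -0.03 and -0.02. Fold changes below are those of edgeR, and levels are TPM, which is scaled for transcript length.

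**Figure D1:**
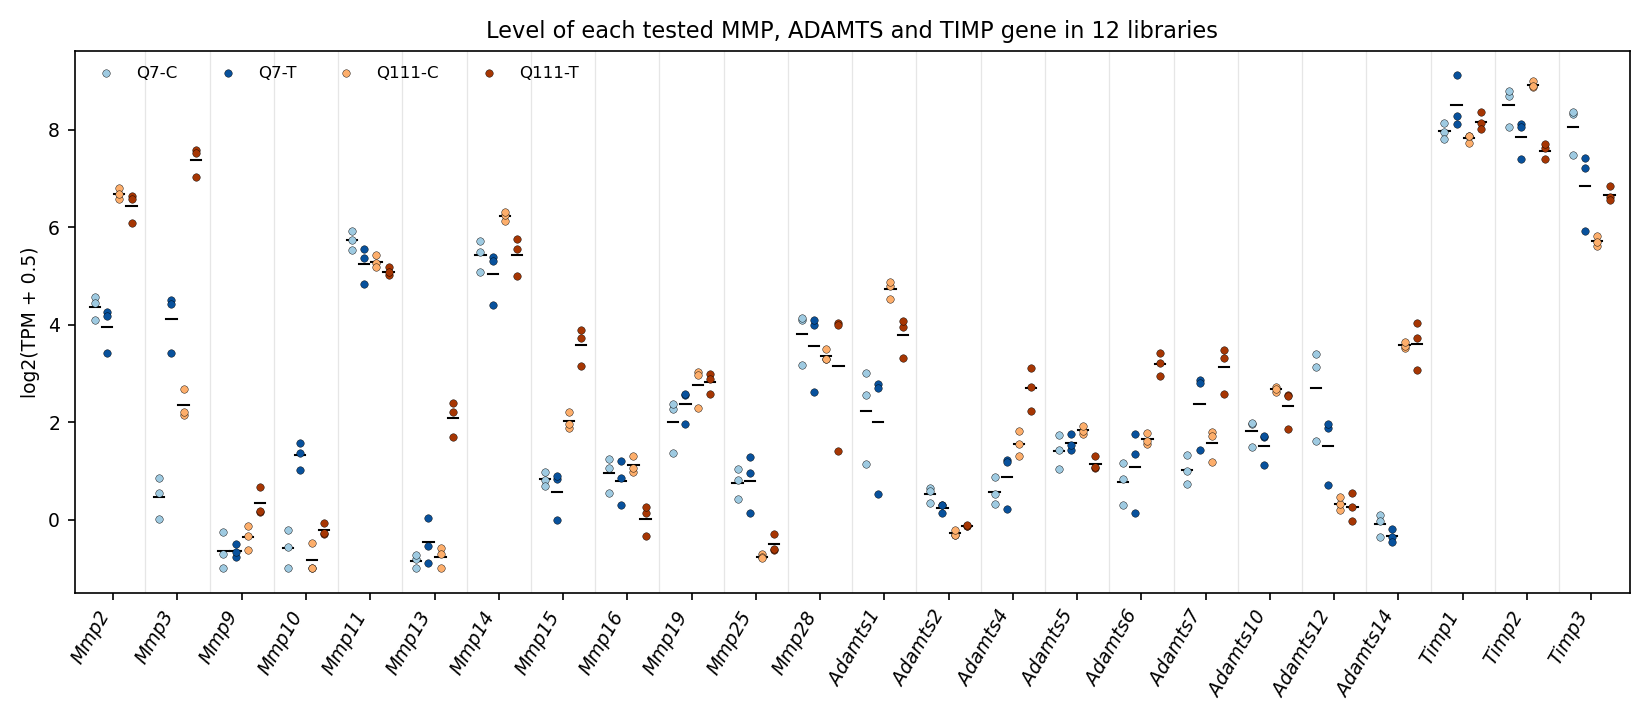
Level of each of the 24 tested members in all 12 libraries, as log2(TPM + 0.5) on the vertical axis. Each point is 1 library, colours mark the 4 groups and the short line is the mean of the log2 values. Timp1, Timp2 and Timp3 are at the top in Q7-C and Q7-T, Mmp3 climbs from 0.925 TPM in Q7-C to 169 TPM in Q111-T, and Adamts14 lies in separate ranges in the 2 lines.

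The members differed widely in level. The TIMPs were the highest members in Q7-C, where Timp2 averaged 374 ± 94.5 TPM, Timp3 275 ± 84.3 and Timp1 252 ± 28.5 (SD, n = 3). The ranges of these 3 genes over the libraries overlapped, although the Timp2 mean lay above every Timp1 library. Mmp11 and Mmp14 followed at 53.1 ± 7.19 and 43.4 ± 9.5 TPM, and their ranges overlapped. Mmp2 was next at 20.5 ± 3.52 TPM. In Q111-C the order changed below Timp2 and Timp1, since Mmp2, at 103 ± 7.9 TPM, and Mmp14, at 74.9 ± 4.64 TPM, were above Timp3, at 51.9 ± 3.68 TPM. In Q111-T, Mmp3 was the most abundant member after Timp1 and Timp2, at 169 ± 34.2 TPM, and its range met that of Timp2 at 191 ± 21 TPM. Among the ADAMTS genes, Adamts12 had the highest mean in Q7-C at 6.93 ± 3.9 TPM, and Adamts1 the highest in Q111-C at 26.4 ± 3.41 TPM.

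The first comparison asked how the 2 lines differ without stimulation. In Q111-C vs. Q7-C, 5 of the 24 tested members were upregulated and 4 downregulated, where 7.62% and 7.61% of all genes tested were called in these directions. The upregulated members were Mmp2, Mmp3, Mmp15, Adamts1 and Adamts14, and the downregulated ones Mmp25, Adamts2, Adamts12 and Timp3. In bulk RNA, fewer cells that express a gene and less RNA of it in each cell cannot be told apart. In the treated cells (Q111-T vs. Q7-T), 8 members were upregulated and 4 downregulated, against 13.3% and 11.2% of all genes. In both conditions 8 members were called between the lines, Timp3 between the nontreated lines only, and Adamts4, Adamts6, Mmp13 and Mmp16 between the treated lines only. The matching shares of all genes were not computed, so these counts have no background beside them. The median log2 fold change of the tested members was 0.35 in Q111-C vs. Q7-C and 0.04 in Q111-T vs. Q7-T, against -0.02 and -0.03 over all genes.

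Mmp2 (chr8:92827291-92853420), the gelatinase that degrades denatured collagen and basement membrane collagen, was 16.6, 23.4 and 21.4 TPM in the Q7-C libraries and 95.6, 111 and 102 TPM in the Q111-C libraries. After treatment it was 18.7, 10.2 and 17.7 TPM in Q7-T and 100.2, 67.7 and 95.7 TPM in Q111-T. All STHdhQ111 libraries were above all STHdhQ7 libraries, and treated and nontreated libraries of a line overlapped. The difference between the lines was 4.06-fold without treatment (log2 fold change 2.02 ± 0.13, SE, edgeR adjusted p = 9.32e-07) and 4.35-fold with it (2.12 ± 0.13, adjusted p = 6.73e-07). The other gelatinase, Mmp9, a well-known product of activated myeloid cells, was close to the detection floor of 12 estimated counts, between 0 and 0.414 TPM in the 9 libraries outside Q111-T and at 1.1, 0.609 and 0.626 TPM in Q111-T. It was not called (Q111-T vs. Q7-T 2.08 ± 0.94 on the log2 scale, edgeR adjusted p = 0.102), although it was without Q7-C replicate 2 (2.09, adjusted p = 0.00918).

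Adamts14 (chr10:61197112-61273438) and Adamts2 (chr11:50602084-50807573), which remove the amino-terminal propeptide of fibrillar procollagens, went in opposite directions between the lines. Adamts14 was 0.283, 0.56 and 0.478 TPM in Q7-C and 10.9, 11.4 and 11.9 TPM in Q111-C, and with treatment 0.281, 0.225 and 0.37 TPM in Q7-T and 15.8, 7.92 and 12.8 TPM in Q111-T. It was the member with the largest fold change among the called ones between nontreated lines, 21.1-fold higher in Q111-C (4.40 ± 0.25, edgeR adjusted p = 3.8e-07) and 30.6-fold higher in Q111-T vs. Q7-T (4.93 ± 0.26, adjusted p = 2.85e-07). Adamts2 was 0.764, 1.06 and 1.01 TPM in Q7-C, 0.739, 0.599 and 0.726 TPM in Q7-T, 0.299, 0.299 and 0.368 TPM in Q111-C and 0.409, 0.41 and 0.43 TPM in Q111-T. Its ranges in the 2 lines were apart in both conditions, and it was 3.6-fold lower in Q111-C (-1.85 ± 0.23, edgeR adjusted p = 0.000149) and 2.2-fold lower in Q111-T (-1.14 ± 0.23, adjusted p = 0.00259). Without Q7-T replicate 2 the latter difference was under 2-fold (-0.98, adjusted p = 0.0051). With limma on log2(TPM + 1), a scale that understates changes of low genes, the former was also under 2-fold (-0.55, adjusted p = 0.00227). Neither gene was called in a treatment response.

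Adamts1, a protease of versican and aggrecan, was 1.71, 5.36 and 7.58 TPM in Q7-C, 6.37, 0.945 and 6.01 TPM in Q7-T, 22.5, 27.4 and 29.1 TPM in Q111-C, and 15.1, 9.48 and 16.4 TPM in Q111-T. The STHdhQ111 libraries were all above the STHdhQ7 libraries. The difference was 4.6-fold without treatment (2.20 ± 0.49, edgeR adjusted p = 0.00696) and 2.56-fold with it (1.35 ± 0.48, adjusted p = 0.045). The treated difference lay at the threshold: it fell under 2-fold without Q7-T replicate 2 (0.95, adjusted p = 0.0668), and its adjusted p was above 0.05 on leaving out any library of Q111-C (0.0578 to 0.0599) or Q111-T (0.0559 to 0.109), or Q7-C replicate 2 (0.0578). Adamts12, a protease with a mucin domain that cuts cartilage oligomeric matrix protein, ran the other way, at 2.55, 8.25 and 10.0 TPM in Q7-C, 3.2, 1.14 and 3.37 TPM in Q7-T, 0.649, 0.744 and 0.88 TPM in Q111-C and 0.696, 0.485 and 0.95 TPM in Q111-T. It was 10.7-fold lower in Q111-C than in Q7-C (-3.42 ± 0.39, edgeR adjusted p = 6.53e-05) and 4.55-fold lower in Q111-T than in Q7-T (-2.19 ± 0.37, adjusted p = 0.000848).

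Among the membrane-type MMPs, Mmp25 was the one lower in STHdhQ111 cells in both conditions. This enzyme, attached by a lipid anchor and best known from leukocytes, was 0.836, 1.55 and 1.26 TPM in Q7-C, 1.44, 0.591 and 1.93 TPM in Q7-T, 0.112, 0.0832 and 0.0785 TPM in Q111-C and 0.316, 0.147 and 0.158 TPM in Q111-T. It was 15.8-fold lower in Q111-C (-3.98 ± 0.41, edgeR adjusted p = 3.16e-05) and 7.88-fold lower in Q111-T (-2.98 ± 0.39, adjusted p = 0.000135). The most abundant member of this class, Mmp14, which activates the proenzyme of Mmp2, was not called in any comparison. It was 33.2, 44.9 and 52.1 TPM in Q7-C and 69.9, 76.0 and 79.0 TPM in Q111-C, a difference of 1.4-fold (0.49 ± 0.15, edgeR adjusted p = 0.0342). Mmp11, a stromelysin that is processed inside the cell by furin, was 1.71-fold lower in Q111-C (-0.78 ± 0.14, edgeR adjusted p = 0.0016) and was under 2-fold in every comparison. Mmp19 ranged from 2.1 to 7.7 TPM over the 12 libraries and Mmp28 (epilysin) from 2.16 TPM in Q111-T replicate 2 to 17.0 TPM in Q7-C replicate 3, and neither was called.

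**Figure D2:**
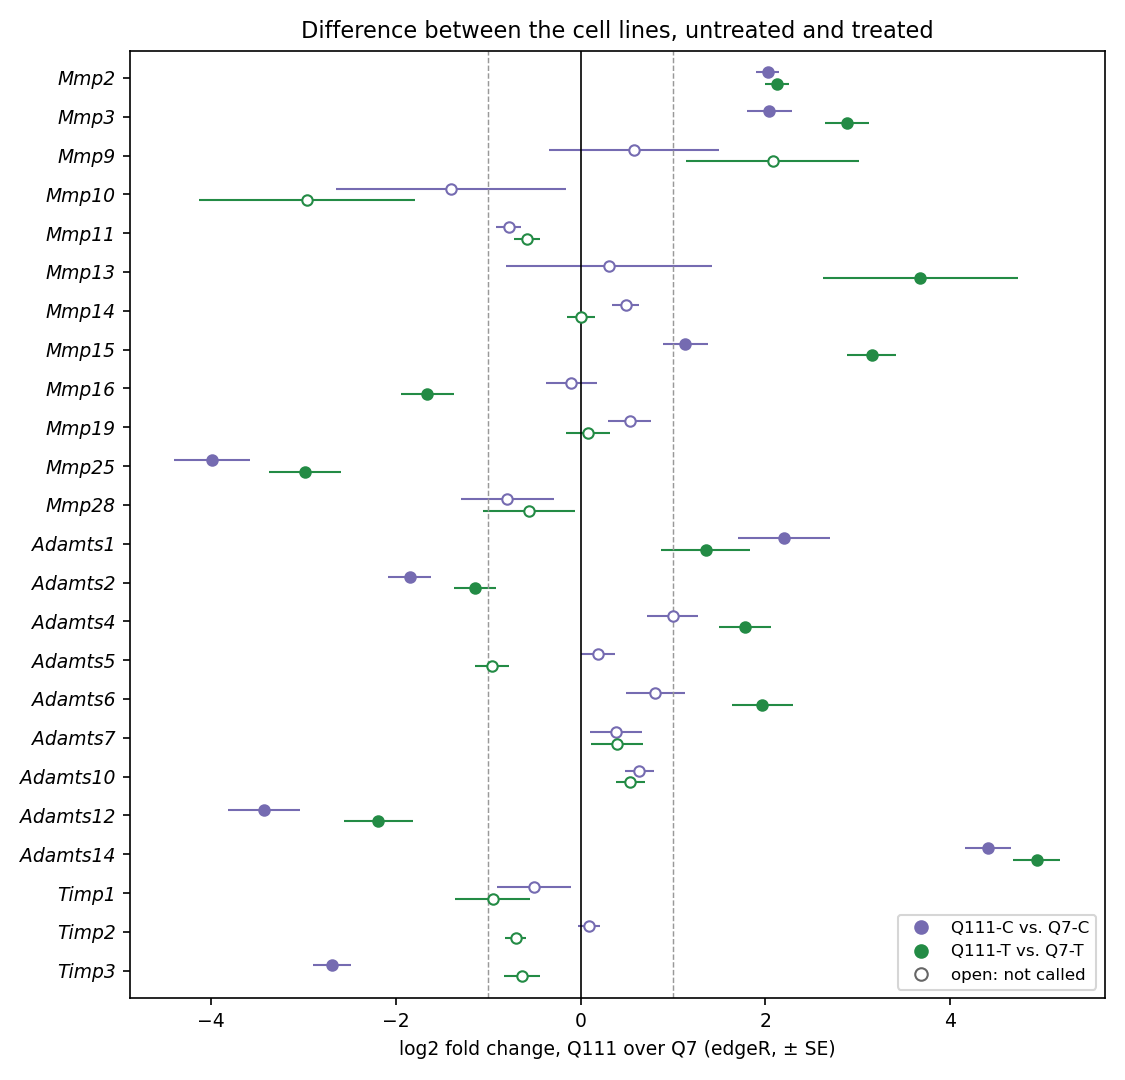
Log2 fold change of STHdhQ111 over STHdhQ7 cells (edgeR, points with SE bars) for each tested member, nontreated in purple and treated in green. Filled points were called and dashed lines mark 2-fold, and in both conditions Adamts14 (4.40 and 4.93) has the highest and Mmp25 (-3.98 and -2.98) the lowest value of the called members.

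The next question was how each line responded to IFNγ/LPS. In Q7-T vs. Q7-C, 2 of the 24 tested members were upregulated and 0 downregulated, where 2.93% and 1.11% of all genes were called, and by edgeR 10 members, and 15.4% of all genes, had an unadjusted p under 0.05 in either direction. DESeq2 called 1 member lower (Adamts12). In Q111-T vs. Q111-C, 8 members were upregulated and 2 downregulated, against 8.28% and 2.96% of all genes. Mmp3 and Adamts7 were the 2 members called in both lines, a count for which the share of all genes was not computed. In STHdhQ111 cells Mmp13, Mmp15, Mmp25, Adamts4, Adamts6 and Timp3 were also upregulated, and Mmp16 and Timp2 were downregulated. By family, 4 of 12 Mmp, 3 of 9 Adamts and 1 of 3 Timp genes were upregulated in Q111-T vs. Q111-C. The median log2 fold change of the members was -0.02 in STHdhQ7 and 0.34 in STHdhQ111 cells, against 0.00 and -0.01 over all genes (0.00328 and -0.00497).

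Mmp3, stromelysin 1, which cuts proteoglycans and laminin and activates other proMMPs, was induced in both lines. It was 0.508, 1.31 and 0.954 TPM in Q7-C and 22.2, 10.3 and 21.1 TPM in Q7-T. In the other line it was 3.94, 4.13 and 5.91 TPM in Q111-C and 192.8, 130.0 and 185 TPM in Q111-T. The 4 groups did not overlap, and every Q111-T library was above every other library. The induction was 21.4-fold in STHdhQ7 (4.42 ± 0.26, edgeR adjusted p = 7.92e-07) and 38.5-fold in STHdhQ111 cells (5.27 ± 0.27, adjusted p = 2.53e-07). Between the lines Mmp3 was 4.12-fold upregulated in Q111-C (2.04 ± 0.24, adjusted p = 9.74e-05) and 7.39-fold upregulated in Q111-T (2.89 ± 0.24, edgeR adjusted p = 5.43e-06). The difference between the 2 responses was 0.84 ± 0.33 on the log2 scale and was not called (edgeR, adjusted p = 0.177), but without the 3 libraries low in long transcripts it was 1.03 ± 0.27 (adjusted p = 0.02). The summed macrophage markers were also highest in Q111-T, as given above, and their part in the result was not tested, while Ptprc, Adgre1 and Itgam were at or near 0.

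Mmp13, the main collagenase of rodents, had almost no reads outside Q111-T. It was 0.0733, 0 and 0.102 TPM in Q7-C, 0.529, 0.0363 and 0.189 TPM in Q7-T, 0, 0.168 and 0.115 TPM in Q111-C and 4.1, 2.72 and 4.77 TPM in Q111-T. The estimated counts behind these were 396, 240 and 354 in Q111-T and 0, 16 and 12 in Q111-C, so the size of the fitted change of 5.38 ± 1.15 on the log2 scale is uncertain (edgeR adjusted p = 0.00653), and it was 6.005 without Q111-C replicate 2 (adjusted p = 0.0215). All Q7-C libraries were at or under the floor of 12 estimated counts, as was Q7-T replicate 2 with 4, while the other Q7-T libraries held 46 and 26, and the gene was not called in Q7-T vs. Q7-C (edgeR adjusted p = 0.428). Q111-T exceeded Q7-T by 3.67 ± 1.05 on the log2 scale (edgeR, adjusted p = 0.0171), and this value was 4.62 without Q7-T replicate 1 (adjusted p = 0.0157), while the call was lost without Q7-T replicate 3 (3.50, adjusted p = 0.0507). Its neighbour Mmp10, stromelysin 2, was 0, 0.18 and 0.361 TPM in Q7-C, 2.06, 2.49 and 1.52 TPM in Q7-T, 0, 0 and 0.214 TPM in Q111-C and 0.319, 0.327 and 0.448 TPM in Q111-T. Here the 3 Q7-T libraries were above all others, and edgeR did not call the gene in Q7-T vs. Q7-C (3.85 ± 1.22, adjusted p = 0.118, and 3.31 to 4.74 with 1 library left out) or in Q111-T vs. Q7-T (-2.96 ± 1.17, adjusted p = 0.0661). DESeq2 called both (3.91, adjusted p = 0.0217, and -2.97, adjusted p = 0.038), and without Q111-C replicate 3, which held all 15 estimated counts of that group, edgeR also called it in Q111-C vs. Q7-C (-6.50, adjusted p = 0.0461) and Q111-T vs. Q111-C (7.41, adjusted p = 0.0289), fold changes against libraries with 0 counts, which set no bound. Of these neighbours at low level, Mmp10 was thus highest in Q7-T and Mmp13 in Q111-T.

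**Figure D3:**
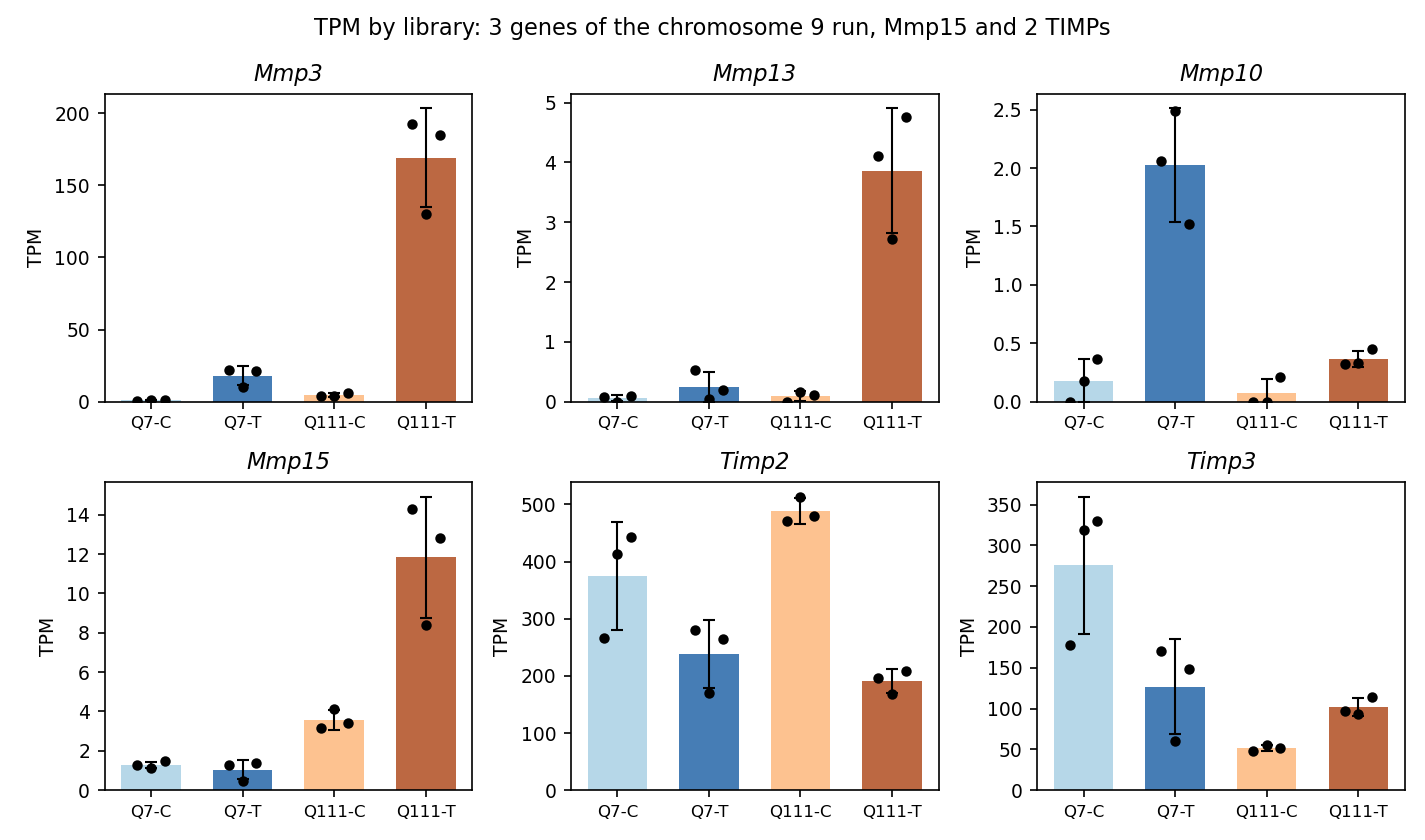
TPM of Mmp3, Mmp13, Mmp10, Mmp15, Timp2 and Timp3 in each group, with bars for the mean, error bars for the SD (n = 3) and a point for each library, and each panel has its own linear axis from 0. Mmp3, Mmp13 and Mmp15 are highest in Q111-T (169, 3.86 and 11.8 TPM), Mmp10 in Q7-T (2.02 TPM), Timp2 in Q111-C (488 TPM) and Timp3 in Q7-C (275 TPM).

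Mmp15 and Mmp16, both membrane-type MMPs, moved in opposite directions in STHdhQ111 cells. Mmp15, a transmembrane collagenolytic enzyme that can activate proMmp2 (chr8:95352268-95375080), was 1.27, 1.12 and 1.46 TPM in Q7-C, 1.28, 0.489 and 1.37 TPM in Q7-T, 3.16, 4.14 and 3.41 TPM in Q111-C and 14.3, 8.38 and 12.8 TPM in Q111-T. It was 3.51-fold higher in Q111-T than in Q111-C (1.81 ± 0.25, edgeR adjusted p = 0.000338), whereas Q7-T and Q7-C overlapped (-0.20 ± 0.25, adjusted p = 0.777). Between the lines it was 2.2-fold higher without treatment (1.13 ± 0.25, adjusted p = 0.00576) and 8.88-fold higher with it (3.15 ± 0.26, edgeR adjusted p = 5.81e-06). Mmp16 was 0.966, 1.59 and 1.86 TPM in Q7-C, 1.79, 0.734 and 1.31 TPM in Q7-T, 1.48, 1.57 and 1.97 TPM in Q111-C and 0.592, 0.287 and 0.697 TPM in Q111-T. All Q111-T libraries were below all others, and the gene was 3.03-fold lower than in Q111-C (-1.60 ± 0.28, edgeR adjusted p = 0.0021) and 3.15-fold lower than in Q7-T (-1.65 ± 0.29, adjusted p = 0.000944). With limma on log2(TPM + 1) the latter call was lost (-0.56, adjusted p = 0.0517), as was the former. Mmp25, at the values given above, was 2.38-fold higher in Q111-T than in Q111-C (1.25 ± 0.39, edgeR adjusted p = 0.0432), with 61, 26 and 24 against 19, 16 and 16 estimated counts. That call rested on few counts and was lost on leaving out any library of Q111-C (adjusted p 0.0681 to 0.154), Q111-T replicate 1 (0.85, adjusted p = 0.19) or replicate 2 (adjusted p = 0.0567), Q7-C replicate 2 or 3 (0.0621 and 0.0628) and Q7-T replicate 1 (0.0557).

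The ADAMTS genes that responded to treatment were Adamts4, Adamts6 and Adamts7. Adamts7, the closest relative of Adamts12 and known from vascular remodelling, was 1.17, 1.5 and 2.01 TPM in Q7-C, 6.83, 2.2 and 6.44 TPM in Q7-T, 1.78, 2.99 and 2.76 TPM in Q111-C and 10.6, 5.49 and 9.46 TPM in Q111-T. Treated and nontreated libraries did not overlap in either line. The rise was 3.56-fold in STHdhQ7 (1.83 ± 0.29, edgeR adjusted p = 0.00224) and 3.58-fold in STHdhQ111 cells (1.84 ± 0.29, adjusted p = 0.000866), and the responses differed by 0.01 ± 0.40 on the log2 scale (adjusted p = 0.999). The rise in STHdhQ7 was not called by limma on log2(TPM + 0.5) (1.35, adjusted p = 0.0962). Adamts4, aggrecanase 1, was 0.748, 0.931 and 1.33 TPM in Q7-C, 1.82, 0.661 and 1.77 TPM in Q7-T, 1.98, 3.01 and 2.44 TPM in Q111-C and 8.18, 4.18 and 6.13 TPM in Q111-T. It was 2.63-fold higher in Q111-T than in Q111-C (1.40 ± 0.28, edgeR adjusted p = 0.00405) and 3.43-fold higher than in Q7-T (1.78 ± 0.28, adjusted p = 0.000512). The former call was lost with limma on log2(TPM + 0.1) (1.25, adjusted p = 0.0561). In Q111-C vs. Q7-C it was just under 2-fold (0.997 ± 0.28, edgeR adjusted p = 0.0221), and it was called in 13 of the 23 alternatives. Among these were DESeq2, RLE scaling, limma on log2(TPM + 0.1) and the replicate block. It was also called without Q7-C replicate 3 (1.18), Q111-C replicate 1 (1.15) or replicate 3 (1.04), Q7-T replicate 2 (1.01) or any library of Q111-T (1.03).

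Adamts6, a regulator of microfibrils and cell junctions, was 0.738, 1.28 and 1.74 TPM in Q7-C, 2.87, 0.593 and 2.04 TPM in Q7-T, 2.42, 2.57 and 2.94 TPM in Q111-C and 8.82, 7.24 and 10.1 TPM in Q111-T. All Q111-T libraries were above all others, and the gene was 3.51-fold higher than in Q111-C (1.81 ± 0.33, edgeR adjusted p = 0.00223) and 3.91-fold higher than in Q7-T (1.97 ± 0.33, adjusted p = 0.00075). Its relative Adamts10, which binds fibrillin, was not called, at between 1.68 and 3.47 TPM in STHdhQ7 and between 3.15 and 6.13 TPM in STHdhQ111 cells. Adamts5, aggrecanase 2, was 1.55, 2.2 and 2.86 TPM in Q7-C, 2.9, 2.19 and 2.39 TPM in Q7-T, 2.89, 3.01 and 3.31 TPM in Q111-C and 1.59, 1.61 and 1.97 TPM in Q111-T. The Q111-T libraries were below those of Q111-C and of Q7-T, and both differences were under 2-fold (-0.73 ± 0.19, adjusted p = 0.0175, and -0.96 ± 0.19, edgeR adjusted p = 0.00216), the second being called without Q7-T replicate 3 (-1.07). Adamts1 and Adamts5 are neighbours on chromosome 16, 53.1 kb apart on the same strand. Adamts12 was lower in Q7-T than in Q7-C, although not called (-1.25 ± 0.36, edgeR adjusted p = 0.0769), and it was called without Q7-C replicate 1 (-1.58, adjusted p = 0.00701), as was its difference between the responses (1.57, adjusted p = 0.0348).

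**Figure D4:**
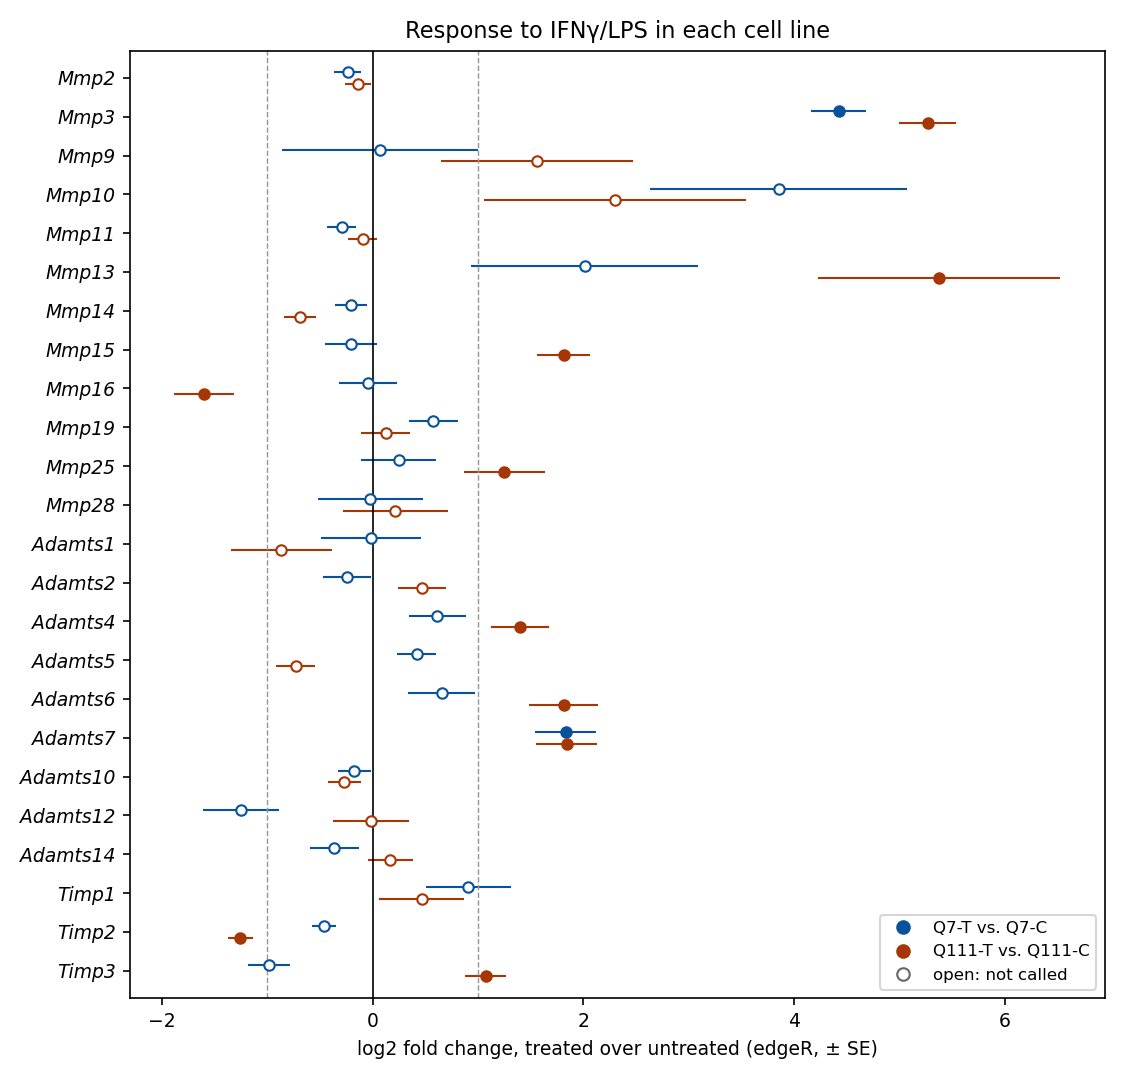
Log2 fold change of treated over nontreated cells (edgeR, points with SE bars) for each tested member, STHdhQ7 in blue and STHdhQ111 in brown. Filled points were called and dashed lines mark 2-fold, so that Mmp3 (4.42 and 5.27) and Adamts7 (1.83 and 1.84) are filled in both lines, and Timp3 lies on opposite sides of 0 (-0.98 and 1.07).

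The inhibitors followed different courses. Timp3 (chr10:86300372-86349506), which is held in the matrix, was 178, 319 and 329 TPM in Q7-C, 171, 60.5 and 149 TPM in Q7-T, 48.4, 55.8 and 51.5 TPM in Q111-C and 97.5, 93.8 and 114 TPM in Q111-T. Treated and nontreated libraries were apart in both lines, lower with treatment in STHdhQ7 and higher in STHdhQ111 cells. Timp3 was 6.45-fold lower in Q111-C than in Q7-C (-2.69 ± 0.21, edgeR adjusted p = 3.57e-06) and 2.1-fold higher in Q111-T than in Q111-C (1.07 ± 0.20, adjusted p = 0.00243), the latter not being called by limma on log2(TPM + 0.5) (0.96, adjusted p = 0.0872). In Q7-T vs. Q7-C it was just under 2-fold (-0.98 ± 0.20, edgeR adjusted p = 0.0109), and it was called without Q7-C replicate 1 (-1.10), Q7-T replicate 1 (-1.13) or Q7-T replicate 3 (-1.05). The difference in Q111-T vs. Q7-T was 1.55-fold (-0.63 ± 0.19, edgeR adjusted p = 0.0242).

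Timp2, which inhibits MMPs and, with Mmp14, takes part in activating proMmp2, was 267, 413 and 443 TPM in Q7-C, 280.0, 169 and 265 TPM in Q7-T, 472, 514 and 479.7 TPM in Q111-C and 196, 168 and 209 TPM in Q111-T. The Q111-T libraries were all below those of Q111-C, a 2.39-fold decrease (-1.26 ± 0.12, edgeR adjusted p = 1.89e-05), and Q7-T was 1.38-fold below Q7-C with overlapping ranges (-0.46 ± 0.12, adjusted p = 0.0433). The Timp2 locus (chr11:118301069-118355740) overlaps Cep295nl on the same strand, so reads could be split between them. Timp1, an inducible inhibitor, was 282, 249 and 226 TPM in Q7-C, 279, 556 and 309.8 TPM in Q7-T, 236, 212 and 235 TPM in Q111-C and 280.1, 329 and 259 TPM in Q111-T. It was not called in any comparison with all 12 libraries (Q7-T vs. Q7-C 0.91 ± 0.40, adjusted p = 0.31; Q111-T vs. Q111-C 0.46 ± 0.40, edgeR adjusted p = 0.514). Its transcript, of 883 bases, is among the short ones, and Q7-T replicate 2 was its highest library, without which the log2 difference of Q7-T from Q7-C was 0.155. In Q111-T vs. Q7-T its value was -0.95 (edgeR, adjusted p = 0.0845), and it was called without Q7-T replicate 1 (-1.25, adjusted p = 0.0267) or Q7-T replicate 3 (-1.19, adjusted p = 0.0482), while the value was -0.19 without Q7-T replicate 2, and -0.36 without the 3 libraries low in long transcripts.

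The summed TPM of each family was taken as a description. The MMPs summed to 141 ± 25.8 TPM in Q7-C and 129 ± 40.2 TPM in Q7-T (SD, n = 3), and to 244 ± 16.4 TPM in Q111-C and 371 ± 77.7 TPM in Q111-T. The TIMPs summed to 902 ± 151 TPM in Q7-C and 747 ± 34.4 TPM in Q7-T, and to 768 ± 12.4 TPM in Q111-C and 583 ± 8.31 TPM in Q111-T. The ratio of TIMP to MMP transcripts was between 6.29 and 6.57 in Q7-C, between 3.01 and 3.34 in Q111-C and between 1.35 and 2.1 in Q111-T. In Q7-T it was 4.82, 9.46 and 4.7, the high value being that of replicate 2, which is low in long transcripts. Thus the Q111-T libraries lay below those of Q111-C, and these below all STHdhQ7 libraries. Mmp3 made up 45.7% ± 0.499 of the summed MMP TPM in Q111-T and 13.6% ± 1.12 in Q7-T, against 1.91% ± 0.432 in Q111-C and 0.639% ± 0.192 in Q7-C. In Q111-C the largest share was that of Mmp2, at 42.2% ± 0.706, and in Q7-C that of Mmp11, at 38.2% ± 3.85. Timp3 was 30.0% ± 4.76 of the summed TIMP TPM in Q7-C, 6.76% ± 0.37 in Q111-C, and 17.2% ± 8.38 and 17.5% ± 1.93 in Q7-T and Q111-T. These are transcript levels, and neither enzyme activity nor protein was measured in these libraries.

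**Figure D5:**
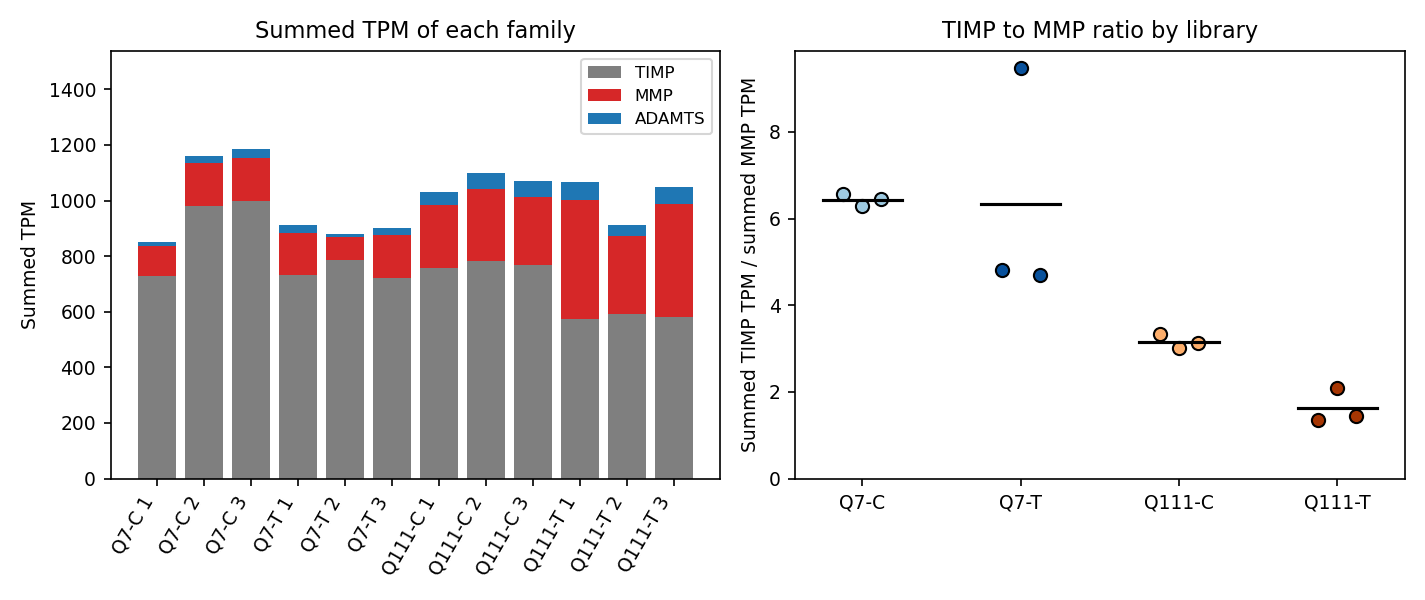
Left, summed TPM of the TIMP, MMP and ADAMTS genes stacked for each of the 12 libraries, and right, summed TIMP TPM divided by summed MMP TPM, with a point for each library and a line for the group mean. The ratio averages 6.44 in Q7-C, 3.16 in Q111-C and 1.63 in Q111-T, and 1 Q7-T library at 9.46 lies apart from the others, at 4.7 and 4.82.

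Whether the lines responded differently was tested by the interaction of cell line and treatment. It called 2 members with a higher response in STHdhQ111 cells, Mmp15 and Timp3, and 2 with a lower one, Adamts5 and Mmp16, where 3.52% and 1.2% of all genes were called. Mmp15 differed by 2.02 ± 0.35 (edgeR, adjusted p = 0.0066) and Timp3 by 2.06 ± 0.28 (adjusted p = 0.00168) on the log2 scale, and both calls held in all 22 alternatives run for the interaction. Adamts5 differed by -1.15 ± 0.26 (edgeR adjusted p = 0.0268), a call lost in 11 of the 22 alternatives, among them no filter and all limma fits. It was under 2-fold without Q7-T replicate 2 (-0.99) and without the 3 libraries low in long transcripts (-0.90). Its adjusted p was above 0.05 without Q7-C replicate 2 (0.0759), Q111-T replicate 1 (0.0679) or any library of Q111-C (0.0608 to 0.0748). Mmp16 differed by -1.55 ± 0.40 (edgeR adjusted p = 0.0424), a call lost in 15 of the 22 alternatives, among them the omission of any 1 library (adjusted p 0.0596 to 0.113) except Q7-T replicate 2 and Q111-T replicate 3. Timp2 differed by -0.79 ± 0.17, which passed the adjusted p (0.0161; edgeR) but was under 2-fold. Mmp13 differed by 3.37 ± 1.51 and was not called (edgeR adjusted p = 0.242), whereas limma on log2(TPM + 0.5) called it (2.48, adjusted p = 0.00234), and the edgeR value was 2.79 to 4.31 with 1 library left out. Limma on that scale also called Mmp10 (-1.29, adjusted p = 0.0495), for which edgeR gave -1.55 ± 1.71 (adjusted p = 0.673) and, without Q111-C replicate 3, 3.57. Without the 3 libraries low in long transcripts, 5 members had a higher response and 1 a lower one: Mmp15 (1.83), Timp3 (2.00), Adamts12 (1.53), Adamts6 (1.09), Mmp3 (1.03) and Mmp16 (-1.26), with edgeR adjusted p from 1.97e-05 to 0.02. The same omission left 5 and 4 members called in Q111-C vs. Q7-C, 8 and 4 in Q111-T vs. Q7-T, 2 and 1 in Q7-T vs. Q7-C, and 8 and 2 in Q111-T vs. Q111-C.

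Genes that act on or beside these proteases were counted in the same fit, and their counts stand beside the shares called among all genes, 7.62% higher and 7.61% lower in Q111-C vs. Q7-C, and 13.3% higher and 11.2% lower in Q111-T vs. Q7-T. Of 12 tested genes for activation, induction, clearance and inhibition, 1 was upregulated in Q111-C vs. Q7-C (Thbs2, a secreted protein that binds Mmp2). In Q111-T vs. Q7-T, 4 genes were higher (Plat, Plau, Reck and Serpine2) and 1 was lower (Pcsk6). Plau, urokinase, whose product plasmin activates proMMPs, averaged 9.63 ± 1.75 TPM in Q7-C and 4.29 ± 2.39 TPM in Q7-T (SD, n = 3), and 23.5 ± 3.25 TPM in Q111-C and 44.1 ± 5.99 TPM in Q111-T. It was downregulated by treatment in STHdhQ7 (-1.08 ± 0.26, edgeR adjusted p = 0.0318) and upregulated in STHdhQ111 cells (1.01 ± 0.26, adjusted p = 0.0164), and the responses differed by 2.09 ± 0.36 (adjusted p = 0.00667). Plat, the tissue plasminogen activator, rose from 46.4 ± 4.72 to 152 ± 13.7 TPM in STHdhQ111 cells (1.82 ± 0.29, edgeR adjusted p = 0.000937), with a response that exceeded that of STHdhQ7 by 2.47 ± 0.40 (adjusted p = 0.0048). Reck, a membrane inhibitor of MMPs, was upregulated in Q111-T compared with Q7-T (2.10 ± 0.47, edgeR adjusted p = 0.00459).

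Of 7 tested ADAM sheddases, which release surface proteins, 2 were upregulated and 1 downregulated between the lines in either condition. Adam8 was upregulated in Q111-C vs. Q7-C (2.22 ± 0.23) and in the treatment response of both lines (1.17 ± 0.22 in STHdhQ7 and 1.80 ± 0.22 in STHdhQ111), and the responses were not called as different (0.63 ± 0.31, edgeR adjusted p = 0.282). Adam19 was higher in Q111-C (3.63 ± 0.34). Adam12 was 3.98 ± 1.99 TPM in Q7-C and lower in Q111-C, at 0.136 ± 0.0536 TPM (-5.11 ± 0.38, edgeR adjusted p = 2.68e-06) and was 1.74 ± 0.464 TPM in Q111-T (3.75 ± 0.36 against Q111-C; adjusted p = 1.97e-05). Among the 3 tested hyalectans and link proteins, which are substrates of Adamts1, Adamts4 and Adamts5, Acan (aggrecan) was 0.0482 ± 0.033 TPM in Q7-C and 14.4 ± 0.49 in Q111-C and fell to 2.13 ± 0.738 TPM in Q111-T (-2.69 ± 0.60 against Q111-C, edgeR adjusted p = 0.00829). Vcan (versican) was upregulated in Q111-T vs. Q111-C (1.79 ± 0.39, edgeR adjusted p = 0.00675), and Hapln4 was lower in Q111-C than in Q7-C (-4.22 ± 0.24, adjusted p = 4.6e-07). Of 9 tested other matrix genes, 4 were upregulated and 1 downregulated in both line comparisons. Fbn2 (fibrillin 2) was 8.48 ± 1.66 TPM in Q111-C and 0.403 ± 0.159 in Q111-T (-4.32 ± 0.32, edgeR adjusted p = 3.29e-06), and Bgn (biglycan) was 8.61 ± 1.8 TPM in Q7-C and 456 ± 10.1 in Q111-C (5.37 ± 0.25, adjusted p = 1.26e-07). Of the 3 tested ADAMTS-like proteins, which lack protease activity, Adamtsl3 was lower in Q111-C than in Q7-C (-5.75 ± 0.47, edgeR adjusted p = 5.95e-06).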

How the data were processed

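Poly(A) RNA of 12 libraries (3 in each of 4 groups, taken from the labels) was sequenced from both ends as stranded libraries. Per the paper's methods and the submitters' processing notes, the authors trimmed reads with Cutadapt, mapped them with HISAT2 to GRCm38 and estimated expression with StringTie. The authors deposited TPM values and unnormalized estimated counts, with totals between 57505990 and 96417834 per library. The paper does not state the count unit: multiples of 4 were 1.25 to 1.6 times as frequent as their even neighbours, so 12 estimated counts (3 read pairs) were taken as the floor, for counting error only.

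Rounded counts of the 16127 genes that reached 0.5 TPM in 3 or more libraries were TMM-scaled and tested with edgeR 4.0.16 (R 4.3.3) by the quasi-likelihood test, with 1 mean for each group and Benjamini-Hochberg adjustment over all genes tested. A call had an adjusted p under 0.05 and at least 2-fold change. The SE was derived from the F statistic. Members, gene lists and tests were chosen with earlier results of these data known. Members called in at least 1 comparison and all tested TIMPs are given by library. From each related list at most 3 genes for each comparison, the called ones with the largest change and no overlap in TPM, were eligible to be named. Some genes were named beyond this rule, such as Serpine2 and Pcsk6 in Q111-T vs. Q7-T and Adam8, with overlapping TPM, in Q7-T vs. Q7-C. The fit was tested on simulated data. Of the promoter motifs searched, 1 is not reported here. Replicate libraries differed by a chi-square of at least 18.3 for each degree of freedom, so none was treated as a duplicate. Alternatives were DESeq2 1.42.0, RLE scaling, other filters, limma 3.58.1 on log2(TPM + 0.1, 0.5 or 1), counts divided by 4, only the groups compared, the replicate number as a block, each library left out, and, chosen after seeing the data, 3 libraries left out together. Plots were drawn in Python 3.11.15 with matplotlib 3.10.9.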

Additional observations from a re-analysis of the deposited data

Results flagged for a closer look

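By edgeR, 5 members responded differently to IFNγ/LPS in the 2 lines by the interaction term (adjusted p under 0.05), as did 5.7% of all genes. The response of STHdhQ111 cells exceeded that of STHdhQ7 cells by 2.02 on the log2 scale for Mmp15 and by 2.06 for Timp3. It was below that of STHdhQ7 cells by a log2 difference of -1.15 for Adamts5, -1.55 for Mmp16 and -0.79 for Timp2, the last of which did not reach 2-fold.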

How the results depend on the processing

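Of 37 calls of members, 22 held in all alternatives that gave them a value (22 or 23), 15 were lost in at least 1 and 0 reversed. In Q7-T vs. Q7-C, where 0 members were called lower, Adamts12 was with DESeq2 and without the 3 libraries low in long transcripts, and Timp3 without a filter. In Q111-T vs. Q7-T, limma on log2(TPM + 1) called 1 member lower. In Q111-T vs. Q111-C, limma on log2(TPM + 0.1) called 5 members higher, and limma on log2(TPM + 1) called 1 lower. For the interaction, limma on log2(TPM + 1) called 4 members higher, and the omission of the 3 libraries 5. Members with a lower response numbered 0 without a filter and with limma at a pseudocount of 0.1. They numbered 1 without the 3 libraries (Mmp16) and with the replicate block (Adamts5). With limma at 0.5 or 1 the number was also 1, but this member was Mmp10. The interaction calls of Adamts5 and Mmp16 were lost in all 3 limma fits. All 3 limma fits lost Adamts7 in Q7-T vs. Q7-C (adjusted p 0.0914 to 0.104), Timp3 in Q111-T vs. Q111-C (0.0856 to 0.0921) and Adamts2 in Q111-T vs. Q7-T (0.0735 to 0.0867). They also lost Mmp25 in Q111-T vs. Q111-C, a call lost in 15 of its 23 alternatives. Among these were the fit without a filter, counts divided by 4, only the groups compared and the replicate block. With limma at a pseudocount of 0.5 and 1, Adamts2 in Q111-C vs. Q7-C (-0.81 and -0.55) and Mmp16 in Q111-T vs. Q7-T (-0.77 and -0.56) were lost, and at 1 also Mmp15 in Q111-C vs. Q7-C, Adamts12 and Mmp25 in Q111-T vs. Q7-T and Mmp16 in Q111-T vs. Q111-C. The cause was not tested. On leaving out 1 library at a time, the members called higher and lower numbered 5 to 6 and 4 to 5 in Q111-C vs. Q7-C, 7 to 8 and 3 to 6 in Q111-T vs. Q7-T, 2 and 0 to 2 in Q7-T vs. Q7-C, 7 to 8 and 2 in Q111-T vs. Q111-C, and 2 to 3 and 0 to 2 for the interaction. The deviations of same-numbered replicates from their group means had correlations from -0.58 to 0.45. These deviations include the shift of the 3 libraries low in long transcripts, so the check cannot tell whether same-numbered libraries were paired. With the replicate block, 6 and 4 members were called in Q111-C vs. Q7-C, and 7 and 2 in Q111-T vs. Q111-C. Depth limits Mmp9, Mmp10, Mmp13 and Mmp25, which had few or no read pairs in 1 or more groups.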
